A study of Equus caballus with 4 samples.

Results

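The tumor necrosis factor (TNF) superfamily comprises ligands that are mostly made as membrane proteins and the receptors that bind them. Here 10 of its genes were followed on gene expression arrays of equine satellite cells: the ligands *tnf*, *tnfsf10*, *tnfsf13b* and *tnfsf15* and the receptors *fas*, *cd40*, *tnfrsf1a*, *tnfrsf1b*, *tnfrsf11b* and *tnfrsf12a*. Members were taken as the non-control probes whose gene name in the scanner files was one of these symbols. That rule found 21 of 43603 probes, for 9 of the 10 genes among 13371 symbols, since *tnfrsf12a* stood only in the description of a probe.

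The cells were satellite cells, the stem cells of skeletal muscle, isolated from equine m. semitendinosus and kept to day 3 of differentiation. The HMB-treated group received 50 µM β-hydroxy-β-methylbutyrate (HMB), a leucine metabolite, for 24 h, and 3 mM H2O2 was present for the final 1 h of it. Control cells had the same H2O2 but no HMB, so neither group shows cells without oxidative stress. Both RNAs were hybridized together on each of 4 arrays of 1 slide, with the HMB-treated RNA in Cy5 and the control RNA in Cy3 throughout. A dye effect and the treatment therefore cannot be told apart. The control labels carry the same replicate number on every array, and nothing shows that the 4 arrays stand for 4 horses, hence the p-values measure only the spread between these arrays, which may be technical.

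Ligands of this family bind as trimers and bring receptor tails together inside the cell. Receptors with a death domain, such as FAS and TNFRSF1A, can start caspase cascades, and most receptors recruit TRAF proteins that lead to nuclear factor kappa B (NF-kB). In skeletal muscle the family is known from inflammation, wasting and repair, and NF-kB in turn drives transcription of several of its ligands and receptors.

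The results turned mainly on 3 ligands, and their probes are given first because the measured signals come from these bases. The brightest tested probe of each ligand is printed 5′ to 3′, and capitals mark the window of 11 bases that the 3 probes share best, spelled TTNTTNGGNGC with N for any base.
tnfsf10: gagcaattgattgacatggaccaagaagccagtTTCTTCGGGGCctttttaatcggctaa
tnfsf13b: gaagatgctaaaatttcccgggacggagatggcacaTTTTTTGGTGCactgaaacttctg
tnfsf15: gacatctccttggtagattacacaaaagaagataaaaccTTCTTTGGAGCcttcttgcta

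The pattern was taken from these probes themselves, with 8 shared letters, so its presence in them is a description. It occurred on the printed strand of 46 of the 43603 probes (0.105%), and on either strand of 91 (0.209%). Of 16 ligand genes of the family with a probe, 5 had it in at least 1 probe, namely these 3, *lta* and *ltb*. Among 43 probes of family receptors it was present in 1, a probe of *tnfrsf17*. Apart from that stretch the 3 probes are different sequences from different chromosomes, and the files annotate them on the EquCab1 build at chr19:8686449-8686508 for *tnfsf10*, chr17:74881968-74882027 for *tnfsf13b* and chr25:16049011-16049070 for *tnfsf15*. The files give no exon or UTR for a probe.

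A probe was tested where 1 or both channels were well above background on all 4 arrays, and it was called where the adjusted p was at most 0.05 and the fold change (FC) at least 1.3. Of the 16 member probes tested, 14 were called, all of them higher in the HMB-treated group. Of these 14, 7 had a control channel well above background on 0 arrays and 1 on 2 arrays, so these 8 entered the test only through the channel in which they were high, and with both channels required 6 probes and 2 members, *cd40* and *tnfrsf1b*, were called. Over all 24669 tested probes 28.6% were called, with 12.1% called higher and 16.4% called lower in the HMB-treated group. By gene, read from its brightest tested probe, 5 of 7 tested members were called, namely *tnfsf10*, *tnfsf13b*, *tnfsf15*, *cd40* and *tnfrsf1b*, against 27.3% of 8333 tested genes, of which 10.1% were higher and 17.2% lower. *Tnf* itself and its main receptor *tnfrsf1a* were not called. All directions given are relative to the normalization within each array. When the arrays were centred on spiked-in RNA instead, the median of all tested probes moved by -0.60, from -0.07 to -0.67, and results of the family that changed their direction or call in that setting are given with their values there.

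**Figure D1:**
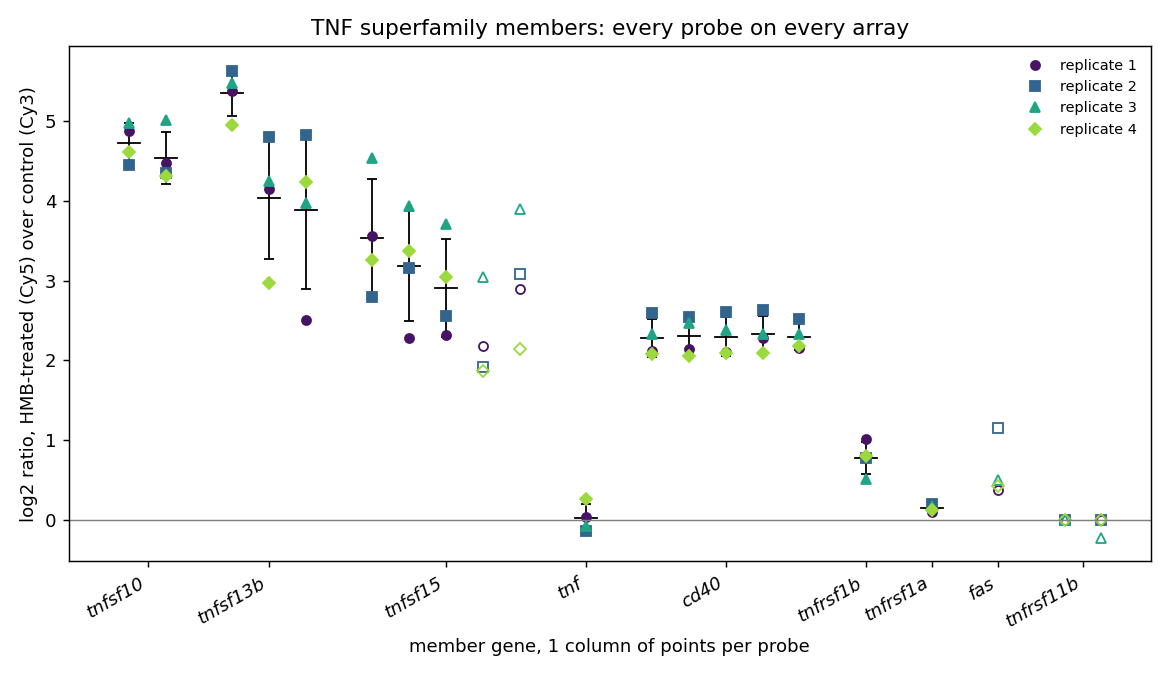
Log2 ratio of HMB-treated (Cy5) over control (Cy3) for all 21 member probes, with 1 column of points per probe and 1 marker shape per array. Bars give the mean and SD over 4 arrays for tested probes, and open markers are probes that were not tested. The probes of *tnfsf10*, *tnfsf13b*, *tnfsf15* and *cd40* lie above 1.8 on every array, whereas *tnf* lies on both sides of 0.

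*Tnfsf10* encodes TRAIL, a ligand of death receptors. Its brighter probe gave processed Cy5 signals of 351, 284, 450.4 and 281 on arrays 1 to 4, and Cy3 signals of 15.8, 14.0, 13.9 and 14.1. The 2 groups did not overlap, and the control channel was not well above background on any array, while the HMB channel was on all 4. The log2 ratios were 4.47, 4.35, 5.02 and 4.31, with a mean of 4.54 ± 0.33 (SD, n = 4, adjusted p = 3.1e-06 by limma). Since the control signal was at background, that ratio depends on how background was handled. The HMB signal was therefore also set against a detection level. This level was the lowest control signal that counted as well above background, array by array, after quantile normalization of the overall intensity. By this probe the mean HMB signal was 16 times that level. The level is no strict limit, since a *tnfsf8* probe exceeded it with control signals of 22.1, 24.4, 32.9 and 21.6. The lowest signals counted as well above background were 18.27, 22.27, 23.61 and 20.66, yet that probe was counted so on 1 of 4 arrays. With a normexp background correction the log2 ratio of *tnfsf10* was 1.56, and without background correction it was 2.13. The other *tnfsf10* probe lies 76 bases upstream and shares no base with it. It gave ratios of 4.88, 4.45, 4.98 and 4.62 (mean 4.73 ± 0.24, adjusted p = 1.5e-06) and a mean HMB signal 6.31 times the detection level. So both parts of the transcript were higher on every array. No probe was named for *tnfrsf10a*, *tnfrsf10b*, *tnfrsf10c* or *tnfrsf10d*, which are symbols of TRAIL receptors, so these genes were not analysed here.

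*Tnfsf13b* encodes BAFF, a survival factor for B cells. Its 3 probes step along the transcript, and they are printed to show where they overlap. Capitals mark the bases that a probe shares with its neighbour.
tnfsf13b upstream probe: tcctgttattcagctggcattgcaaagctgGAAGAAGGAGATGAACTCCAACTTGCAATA
tnfsf13b middle probe: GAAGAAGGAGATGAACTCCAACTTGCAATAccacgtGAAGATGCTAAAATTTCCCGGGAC
tnfsf13b downstream probe: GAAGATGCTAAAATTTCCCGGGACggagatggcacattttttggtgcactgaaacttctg

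Neighbours share 30 and 24 bases, hence the 3 probes are not independent readings. The upstream probe spans 2845 bases of EquCab1 (chr17:74879117-74881961), so its bases lie on both sides of an intron, and it had Cy5 signals of 160.2, 261, 302 and 174 against Cy3 signals of 3.86, 5.25, 6.77 and 5.60. Its ratios were 5.37, 5.63, 5.48 and 4.96, with a mean of 5.36 ± 0.29 and an adjusted p of 1.5e-06. The middle probe ranged from 2.97 to 4.80 with a mean of 4.04 ± 0.77 (adjusted p = 0.000118). For these 2 probes the control channel was at background on all 4 arrays, so their mean ratios cannot be set against each other. Their mean HMB signals were 10.4 and 9.63 times the detection level, which is no strict limit.

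The downstream probe of *tnfsf13b* was the brightest, with Cy5 signals of 358, 542, 597 and 282. Its Cy3 signals were 63.0, 19.1, 38.1 and 14.98, and they were well above background on 2 of 4 arrays, replicates 1 and 3. The groups again did not overlap. The ratios were 2.51, 4.82, 3.97 and 4.24, with a mean of 3.88 ± 0.99 (SD, n = 4, adjusted p = 0.000348). On replicates 2 and 4 the ratio rests on a control signal at background, and on replicates 1 and 3, with 2.51 and 3.97, it was measured on both sides. The high control signal on replicate 1 was seen at this probe only: the upstream and middle probes had their lowest control signals, 3.86 and 9.47, on the same array.

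*Tnfsf15* encodes TL1A, whose signalling receptor is the death-domain receptor TNFRSF25. Its 5 probes start at successive bases of 1 stretch, each sharing 59 of 60 bases with the next, so they repeat 1 measurement. The brightest tested probe gave Cy5 signals of 50.0, 87.8, 159.0 and 74.7 and Cy3 signals of 10.3, 9.85, 10.4 and 7.19. The control channel was at background on all arrays and the HMB channel above it on all arrays, without overlap. Ratios were 2.28, 3.16, 3.94 and 3.38, with a mean of 3.19 ± 0.69 and an adjusted p of 0.000194. Over the 3 tested probes the means were 2.91 to 3.54, and the mean HMB signals were 2.79 to 4.08 times the detection level. With normexp the ratio of the brightest tested probe was 0.59, and without background correction it was 0.92. The other 2 probes missed the filter because the HMB channel was well above background on 3 of 4 arrays, and their means were 2.25 and 3.01. Replicate 3 had the highest ratio at all 5 probes.

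*Tnf*, the founding ligand of the family, was bright in both groups. Its single probe gave Cy5 signals of 2012, 2145, 2122 and 1416 and Cy3 signals of 1954, 2370.2, 2236 and 1179. The ranges overlapped, replicate 4 was the dimmest in both channels, and the ratios of 0.04, -0.14, -0.08 and 0.26 fell on both sides of 0. The mean was 0.02 ± 0.18 (SD, n = 4, adjusted p = 0.85 by limma), with a 95% interval from -0.18 to 0.22 on the log2 scale, which lies within an FC of 1.3 in either direction. With spike-in centring *tnf* was at -0.56 (adjusted p = 0.000863), called lower, which was 0.11 above the median of all probes in that setting.

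**Figure D2:**
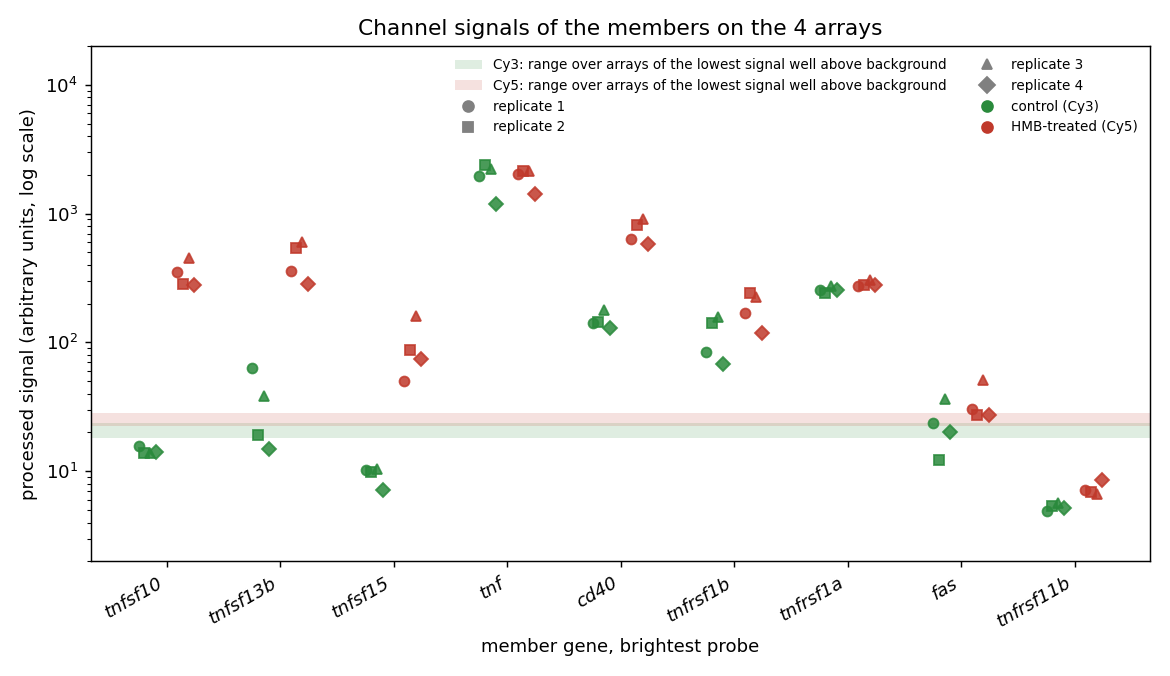
Processed signals of the control (Cy3, green) and HMB-treated (Cy5, red) channels for the brightest probe of each member, on a log axis in arbitrary units, with 1 marker per array. The shaded bands give the range over arrays of the lowest signal that counted as well above background, and the control signals of *tnfsf10* and *tnfsf15* lie below them while those of *tnf* lie far above them. Heights of different genes are not comparable, because probes differ.

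Among receptors, *cd40* had the largest ratio. CD40 is the receptor of CD40 ligand, known from B cells and antigen-presenting cells and also found on other cells under inflammation. Its 5 probes also overlap by 59 of 60 bases (EquCab1 chr22:35086100-35086163). At the brightest one the Cy5 signals were 631, 819, 908 and 585 and the Cy3 signals 142, 143, 180.0 and 129. Both channels were well above background on all 4 arrays, so here the ratio is measured on both sides, and the lowest HMB signal was over 3 times the highest control signal. The ratios were 2.15, 2.52, 2.33 and 2.18, with a mean of 2.30 ± 0.17 (FC 4.92, adjusted p = 7.76e-06). Over the 5 probes the means ran from 2.28 to 2.34. The probe of its ligand, *cd40lg*, was at background in both channels on all arrays, with Cy5 signals of 5.21 to 6.36.

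*Tnfrsf1b*, the TNF receptor that lacks a death domain and acts through TRAF2, rose less. Its probe spans 653 bases of EquCab1 (chr2:37618721-37619373) and so crosses an intron. The Cy5 signals were 170.5, 243, 225 and 118, and the Cy3 signals were 84.7, 142, 157 and 68.0. The ranges of the groups overlapped because replicates 2 and 3 were brighter than 1 and 4 in both channels, whereas on every single array the HMB channel was the higher. Ratios of 1.01, 0.77, 0.52 and 0.80 gave a mean of 0.77 ± 0.20 (FC 1.71, adjusted p = 0.00103). With spike-in centring the mean was 0.12 (adjusted p = 0.242) and not called, 0.79 above the median of all probes.

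*Tnfrsf1a*, the death-domain receptor of TNF, had Cy5 signals of 272, 278, 306 and 279 and Cy3 signals of 254, 241, 272 and 256. The HMB channel was slightly the higher on all 4 arrays. The ratios were 0.10, 0.20, 0.17 and 0.13, with a mean of 0.15 ± 0.04 (adjusted p = 0.0793, 95% interval 0.01 to 0.29), which passed neither threshold. With spike-in centring it was at -0.44 (adjusted p = 0.00566), called lower and 0.23 above the median of all probes. The difference between the 2 TNF receptors was not tested, since they were read by different probes.

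*Fas*, the death receptor of FAS ligand, was close to background. Its Cy5 signals were 30.7, 27.2, 51.5 and 27.2 and its Cy3 signals 23.7, 12.2, 36.4 and 20.3, well above background in each channel on 1 of 4 arrays, replicate 3. The ratios were 0.37, 1.16, 0.50 and 0.42 (mean 0.61 ± 0.37). All 4 were above 0, the signals overlapped between groups, and the probe did not enter the test. With no filter on dim probes its adjusted p was 0.0871.

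*Tnfrsf11b* encodes osteoprotegerin, a secreted decoy receptor of RANK ligand. Its 2 probes were at background in both channels on all 4 arrays, with Cy5 signals of 5.81 to 8.63 and Cy3 signals of 4.38 to 6.80. The 153 negative control spots had medians of 6.12 to 8.06 in Cy5 and 4.45 to 5.17 in Cy3. The transcript was therefore not detectable in either group with these probes. Single negative control spots reached 146, 85.2, 25.2 and 209 in Cy5 on arrays 1 to 4, and 12.2 to 115 in Cy3. On arrays 1 and 4 that Cy5 maximum was above the HMB signal of the brightest tested *tnfsf15* probe, and on arrays 2 and 3 below it.

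*Tnfrsf12a*, which encodes the TWEAK receptor Fn14, was outside the rule and is given for completeness. The only probe whose description names it had Cy5 signals of 4310, 3636, 4212 and 3079 and Cy3 signals of 5415, 4263, 5947 and 4260.5. The ratios were -0.33, -0.23, -0.50 and -0.47, with a mean of -0.38 ± 0.13 and an adjusted p of 0.00652, and the FC of 1.302 lay just past the threshold. It was past both thresholds in 11 of 19 other settings of the processing, and the mean ran from -0.91 to -0.16. That probe maps to an unplaced chromosome and holds a unit of 4 bases repeated 3 times in a row, as 155 of the 43603 probes do (0.355%). No probe was named for its ligand, *tnfsf12*.

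Called probes of 1 gene that share most of their bases had their highest ratio on the same array, but not always their lowest. The lowest ratio of the called *tnfsf15* probes fell on replicate 1 or 2. Of the 14 called member probes, 8 had their highest ratio on replicate 2 and 5 on replicate 3, and 7 had their lowest on replicate 4. The 5 *cd40* probes all peaked on replicate 2. Correlations between arrays over all tested probes were 0.837 to 0.92, as a description of arrays that share 1 slide. No member spot was marked as an outlier on any array.

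The rest of the family was examined through 36 further ligands and receptors, of which 29 had a probe and 7 a tested probe. The called ones were 2 of these 7, near the 27.3% called over all tested genes, and both were higher with the deposited ratios: *tnfsf8*, the CD30 ligand, and *tnfrsf25*, the receptor of the *tnfsf15* product. *Tnfsf8* had ratios of 1.18, 0.92, 1.203 and 1.00 (mean 1.07 ± 0.14, adjusted p = 0.000133), with Cy5 signals of 43.2 to 75.8. Its control channel was well above background on 1 of 4 arrays, so the size of that ratio rests largely on how background was handled, and it was not called with normexp or with both channels required. *Tnfrsf25* had ratios of 0.43, 0.48, 0.55 and 0.34 (mean 0.45 ± 0.09, adjusted p = 0.00237), and its other tested probe had a mean of 0.85 (adjusted p = 0.0164). The control channel was well above background on 3 of 4 arrays at the first and on 1 at the other, so both entered the test through the HMB channel. Spike-in centring turned the first to -0.38, called lower. It was not called with normexp, without background correction, with median centring, with treat or with separate channels. With both channels required it left the test. The signal of *tnfrsf25* was low in both groups, at 33.8 to 58.4 in Cy5 and 25.0 to 46.0 in Cy3.

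The other 5 tested genes of the family were not called. *Tnfsf13*, which encodes the BAFF relative APRIL, had a mean of 0.25 ± 0.11 at its brightest probe (adjusted p = 0.0248, FC 1.19), while 3 of its 5 probes passed both thresholds with means of 0.41 to 0.43. *Tnfsf9*, the 4-1BB ligand, was very bright, with Cy5 signals of 8610.0 to 13890.0, and had a mean of 0.37 ± 0.17 (adjusted p = 0.0132), an FC of 1.29 that fell just short of the threshold. It was called higher with median centring (0.60), with GC correction (0.40) and without replicate 1, 3 or 4 (0.39 to 0.40). *Lta* was at -0.05 ± 0.28 (adjusted p = 0.713), the lymphotoxin receptor *ltbr* at -0.16 ± 0.09 (adjusted p = 0.0776) and the BAFF receptor *tnfrsf13c* at -0.42 ± 0.49 (adjusted p = 0.0968). The ratios of *tnfrsf13c* were -0.92, -0.23, 0.18 and -0.70, of mixed sign, and it was called lower with median centring (-0.55), with array quality weights (-0.53) and without replicate 3 (-0.62). With spike-in centring *tnfsf13*, *lta* and *ltbr* were called lower, at -0.48, -0.84 and -0.73, *tnfrsf13c* was called lower as well, *tnfsf9* was at -0.14, and *tnfsf8*, at 0.23, was not called.

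A further 22 genes of the family had probes but no tested one. Of these 15, such as *faslg*, *tnfsf11* (RANK ligand) and *ngfr*, were well above background on no array in either channel. The other 7 were well above background in 1 channel on 1 to 3 arrays, or in both, and their mean ratios went both ways. The lowest was -0.88, at 1 of 2 probes of *tnfrsf17* (the other was at -0.20), *cd27* was at -0.25 at its brightest probe and *relt* at -0.02, while *tnfrsf4* was at 0.63 and *tnfrsf18* at 0.88. *Cd70* and *tnfrsf14* had the highest means and are given in full, chosen after their values were seen. The ligand gene *cd70* had Cy5 signals of 19.9, 45.3, 36.4 and 8.32, well above background on 2 arrays, and Cy3 signals of 4.88 to 5.91 at background. *Tnfrsf14*, the receptor HVEM, had Cy5 signals of 79.7, 84.6, 90.8 and 26.2 and Cy3 signals of 42.5, 21.3, 17.8 and 13.6, and its ratios of 0.91, 1.99, 2.35 and 0.94 were all above 0 without a test.

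The genes that act below the receptors were then counted, without a test of any list. The median log2 ratio over all tested genes was -0.09, and 10.1% of them were called higher and 17.2% lower. With spike-in centring that median was -0.70, and of 24669 tested probes 1008 were called higher and 19170 lower. The spike-in counts and medians of the lists below are to be read against these values. Of 8 tested genes of death-domain adaptors, initiator caspases and necroptosis 6 were called, all higher, and the list had a median of 1.16 (with spike-in centring 5 were higher and 2 lower, and with normexp 5 and 0). They were led by the necroptosis effector *mlkl* (2.09 ± 0.32, adjusted p = 7.18e-05) and the initiator caspases *casp10* (1.73 ± 0.27, adjusted p = 8.41e-05) and *casp8* (1.37 ± 0.28, adjusted p = 0.000253). Of 2 tested *casp10* probes, 1 was called. The control channels of *mlkl* and *casp10* were well above background on 3 of 4 arrays, so both entered the test through the HMB channel. The adaptors *tradd* and *fadd*, at -0.27 and 0.06, were not called, and with spike-in centring both were called lower, at -1.04 and -0.75. 

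Of 20 tested genes of TRAF proteins, inhibitors of apoptosis, the linear ubiquitin complex and their kinases, 6 were called higher and 2 lower, with a median of 0.21, which became 2 higher, 9 lower and -0.36 with spike-in centring, *cyld* losing its call at 0.25. With normexp 4 were higher and 1 lower, and with median centring 10 and 2. *Birc3*, which encodes the ubiquitin ligase cIAP2, was far ahead at 3.98 ± 0.31 (adjusted p = 4.28e-06), before *rbck1* of the linear ubiquitin complex (1.11 ± 0.26, adjusted p = 0.00047) and the deubiquitinase *cyld* (0.84 ± 0.14, adjusted p = 0.00035). *Map3k7*, the kinase TAK1, was lower at -0.66 (adjusted p = 0.00124), as was *traf4* at -0.63 (adjusted p = 0.013). 

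Of 10 tested NF-kB genes 7 were called, each of them higher, and the median was 0.56, against 1 higher, 3 lower and -0.17 with spike-in centring, where *nfkb1* and *relb*, at 0.34 and 0.13, lost their call. With normexp 3 of the 10 were called and without background correction 5, all higher. With the deposited ratios the called genes included the inhibitor *nfkbia* (2.04 ± 0.21, adjusted p = 2.36e-05) and the subunits *nfkb1* (0.95 ± 0.16, adjusted p = 0.000293) and *relb* (0.90 ± 0.32, adjusted p = 0.00191). Of 8 tested genes known to be induced by TNF, or named after such a gene as *tnfaip8l3* is, 7 were called, again higher. The median was 1.62, and with spike-in centring 5 were higher and 1 lower. The chemokines *cxcl8* (5.25 ± 0.48, adjusted p = 5.75e-06) and *ccl2* (4.28 ± 0.29, adjusted p = 2.58e-06) and the adhesion molecule *icam1* (2.08 ± 0.31, adjusted p = 6.69e-05) had the largest ratios, but the control channel of *cxcl8* was well above background on 2 of 4 arrays, so its size rests in part on how background was handled. The ratio of *tnf* itself was smaller than those of these 3 genes on every array, but they were chosen as the largest called ratios of the list. Any link between them and *tnf* was not tested.

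Among 4 tested genes that release ligands from the membrane or limit that release, 0 were called by limma (with spike-in centring 3 were lower, and 1 was higher without background correction, with median centring and with GC correction), 2 had an unadjusted limma p under 0.05, and the methods' t-test called 0 after adjustment. They were the proteases *adam10* (0.24, adjusted p = 0.0724) and *adam17* (-0.15, adjusted p = 0.205), the ADAM17 partner *rhbdf1* (0.37, adjusted p = 0.0096, FC 1.29) and the inhibitor *timp3* (-0.04, adjusted p = 0.677).

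**Figure D3:**
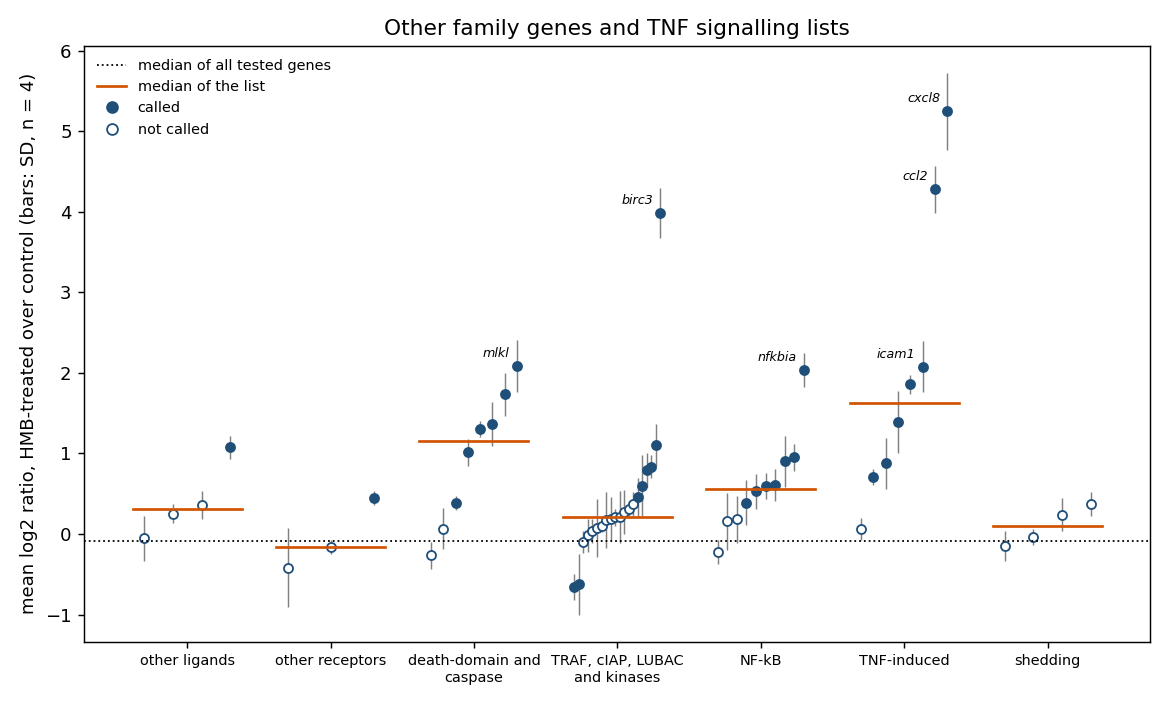
Mean log2 ratio of HMB-treated over control for each tested gene of the other family members and of the signalling lists, with SD bars over 4 arrays. Filled points were called, orange lines are list medians and the dotted line is the median of all tested genes at -0.09. The death-domain, NF-kB and TNF-induced lists hold called genes on the higher side only with these deposited ratios, and *birc3*, *cxcl8* and *ccl2* are the genes above 3.9.

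Markers of the cells that the culture could hold were read on the same arrays. Of 12 muscle markers 11 were well above background in both channels on all arrays, *myod1*, *myf5*, *myog* and *des* among them, whereas the satellite cell marker *pax7* was at background. Of the 11 tested, 8 were lower in the HMB-treated group, from *myh8* at -1.67 ± 0.66 to *myod1*, not called, at 0.32 ± 0.25, and the summed signal of the list was 178700.0 to 201100.0 in the control channel and 70240.0 to 110600.0 in the HMB channel. Fewer cells of a type and less RNA per cell cannot be told apart in such bulk samples. Of 7 tested fibroblast markers 5 were higher, from *col3a1* at 0.06 ± 0.29, not called, to *pdgfra* at 1.49 ± 0.26 (2 higher with spike-in centring), and the list summed to 225500.0 to 263100.0 in control and 256700.0 to 395100.0 in HMB-treated cells. The value of *col3a1* is that of its brightest probe, and 3 of its 7 tested probes were called.

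Leukocytes are a known source of several of the ligands. Of 16 leukocyte markers 7 were well above background on all arrays, and their ratios ran from *fcer1g* at -0.50 ± 0.12 to *cd68* at 0.88 ± 0.20, with 3 called higher and 1 lower (0 and 3 with spike-in centring). The list summed to 16810.0 to 21460.0 in control and 20540.0 to 32420.0 in HMB-treated cells. Most of that was 1 probe of *ptprc*, with 12170 to 15750 in control and 15160 to 24720 in HMB-treated cells. Of the defining markers, *ptprc* (CD45) was well above background in both channels, while *cd163*, *itgam*, *aif1*, *tyrobp*, *cd3e* and *cd79a* were well above it on no array. None of 6 endothelial markers with a probe was well above background on all arrays. The part of the muscle, fibroblast and leukocyte markers in the ratios of the family was not tested.

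Other ways of processing left 5 called members in most settings, but they changed sizes. With a normexp background correction the ratios of *tnfsf10*, *tnfsf13b* and *tnfsf15* were 1.56, 1.57 and 0.59, and that of *cd40* was 1.59, all still called, so the order of the members is not fixed by these arrays. Centring on the array median moved the median of all probes by 0.15 and changed no call of a member. With spike-in centring *tnfsf10*, *tnfsf13b*, *tnfsf15* and *cd40* remained called higher, at 3.81, 3.19, 2.29 and 1.70.

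**Figure D4:**
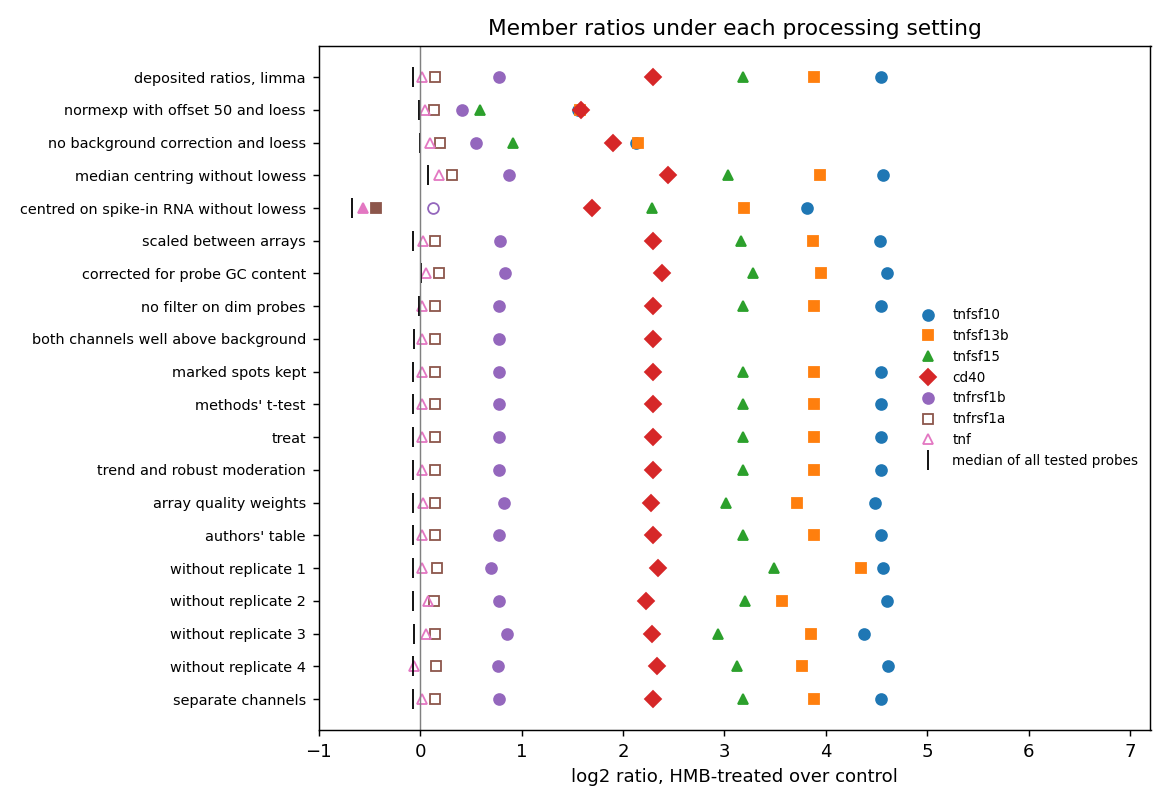
Log2 ratio of the brightest probe of the 7 tested members under 20 settings, with filled markers for called ratios, open ones for ratios not called, and black ticks for the median of all tested probes. Normexp and the absence of background correction pull *tnfsf10*, *tnfsf13b* and *tnfsf15* toward 0, to 1.56, 1.57 and 0.59 with normexp, and spike-in centring shifts all members to the left with the median. Where both channels had to be above background, these 3 ligands have no point.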

How the data were processed

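The scanner files of 4 Agilent horse arrays (probes of 60 bases, EquCab1) were used. For the intensity values, the authors' Feature Extraction software (version 10.10.1.1 per the file headers) subtracted background and applied linear and lowess normalization within each array, with a surrogate value in place of signals not above background. The deposited log10 ratios are Cy5 over Cy3 and were changed to log2 here. The deposited table of log10 ratios differed from them by at most 3.96e-05. Precision is limited by the number of arrays.

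Control spots and spots marked as outliers were left out. Probes were tested where at least 1 channel was flagged well above background on every array and 3 or more ratios were left. Ratios were tested against 0 with limma 3.58.1 in R 4.3.3 and Benjamini-Hochberg adjustment over all tested probes, with thresholds of 0.05 for the adjusted p and 1.3 for the FC. A gene was read by its tested probe of highest mean intensity. Detection levels used both channels after Aquantile normalization.

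Named were all members with every probe, the other tested family genes, the 3 called genes with the largest ratio and 1 direction on all arrays per signalling list, and the highest and lowest ratio of each marker list. Genes named outside this rule were chosen after their values were seen. Some probes without a symbol were named from their description. Some genes of the signalling lists are not reported here, and the counts cover the remaining tested genes. The members and lists were chosen with earlier results of these data known. The alternatives were background correction, centring, scaling, GC correction, filters, the methods' t-test, other moderation, separate channels, the authors' table, probe averaging and leaving out each replicate.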

Additional observations from a re-analysis of the deposited data

Results flagged for a closer look

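Of 47 probes examined for a single array far from the other 3 (Dixon's test), 7 had one. Chance gives about 1 in 20 where values are measured on both sides, which cannot be applied to *fas* replicate 2, *cxcl8* replicate 1 and *tnfrsf11b*, whose control or both signals were at background. Among the members, *fas* had a log2 ratio of 1.16 on replicate 2 against 0.37 to 0.50 on the other arrays, and 1 probe of *tnfrsf11b* had -0.23 on replicate 3 against 0, at background in both channels. In the rest of the family *tnfsf13* was at 0.09 on replicate 3 against 0.29 to 0.32, and *tnfsf9* was at 0.63 on replicate 2 against 0.27 to 0.30. *Cxcl8* was at 5.96 on replicate 1 against 5.0 to 5.02, *ccl2* at 3.85 on replicate 4 against 4.38 to 4.46, and *myod1* at -0.06 on replicate 4 against 0.42 to 0.46. These probes had their distant value on different arrays, and the causes were not tested.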

How the results depend on the processing

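Called members numbered 5 with the deposited ratios. They were 2, with 6 called probes instead of 14, where both channels had to be well above background, since the 3 ligands at background in the control then leave the test. In the other settings 5 or 6 members and 13 to 16 probes were called, and leaving out a replicate gave 5 and 14 throughout. Without replicates in turn, ratios ran from 4.38 to 4.61 for *tnfsf10*, 3.57 to 4.34 for *tnfsf13b*, 2.94 to 3.49 for *tnfsf15*, 2.22 to 2.34 for *cd40*, 0.70 to 0.86 for *tnfrsf1b*, 0.13 to 0.17 for *tnfrsf1a* and -0.059 to 0.077 for *tnf*, below 0 without replicate 4. Centring on spike-in RNA called 6 members, but not the same ones. *Tnf* at -0.56 and *tnfrsf1a* at -0.44 were called lower there, and *tnfrsf1b* at 0.12 lost its call (adjusted p = 0.242 by limma). Other family genes called were 2, and 0 with normexp and with the filter on both channels, 1 without background correction, with treat and with separate channels, 5 with spike-in centring (all lower) and 2 to 4 with a replicate left out, 4 without replicate 3. All tested probes called were 7046 (42.5% higher), but 3538 (55.0% higher) with normexp, 4439 (60.1%) without background correction, 7775 (65.3%) with median centring, 20178 (5.0%) with spike-in centring, 6713 (55.7%) with GC correction, 2822 (54.6%) with treat and 5030 with the methods' t-test (6458 before adjustment), which called 14 member probes either way. Counting *tnfrsf12a* by its description, added after seeing the data, gave 6 members. No paired analysis was possible because none remained to be added: the ratio within each array already pairs the groups, and separate channels with an estimated correlation within spots of 0.221 called 5 members. The cause of these changes was not tested beyond the filter. Weak signal limits *fas*, *tnfrsf11b* and the control level of the 3 ligands.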
